A study of Mus musculus with 10 samples.

Results

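The genes described here encode the receptors, ligands, substrates and binding proteins of the insulin and insulin-like growth factor (IGF) system. They are the receptors Insr, Igf1r and Igf2r, the ligands Igf1 and Igf2, the substrates Irs1 and Irs2, and the binding proteins Igfbp4, Igfbp5 and Igfbp7. They were chosen by name, and each of the 10 symbols matched 1 row of a table of 52178 genes. All 10 passed the filter on low counts, which kept 15298 genes.

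RNA was sequenced from pancreatic islets of male C57Bl/6 mice that were retired breeders, in 5 libraries from the exercise group (exercise 6 to 10) and 5 from the sedentary group (sedentary 1 to 5). Training of the exercise mice followed 3 days of acclimatization and lasted 2 weeks, with 5 daily treadmill sessions of 1 h in each week, a belt speed of 17 cm/s and a slope of 5 degrees. Islets of both groups were released by collagenase, picked by hand and placed in RPMI medium with 11 mM glucose and serum. The comparison asked which transcripts of this signalling system differed in islets after the training.

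Insulin binds the insulin receptor and IGF1 and IGF2 bind the IGF1 receptor, and both receptors are tyrosine kinases that phosphorylate the substrates IRS1 and IRS2. The phosphorylated substrates recruit PI3-kinase, which leads to the kinase AKT and to exclusion of FoxO transcription factors from the nucleus. In mouse islets IRS2 is known for its part in keeping up beta cell mass, and its gene is known to be raised by FoxO factors and by cAMP signalling.

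The libraries held 16461369 to 23222704 counts in the exercise group and 15081922 to 20670174 in the sedentary group. Levels are given as CPM, the usual per-library scaling of counts with composition-corrected library sizes, and group values as mean ± SD over 5 libraries. No label ties a library to an animal, and the p-values therefore reflect differences among libraries that could be technical in part. Sedentary 1 and 2 stood apart from the other 8 libraries. The summed level of 10 beta cell markers, insulin genes included, was 8150 CPM in sedentary 1 and 37400 CPM in sedentary 2, against 136000 to 194000 CPM in sedentary 3 to 5 and 135000 to 191000 CPM in the exercise libraries. The summed level of 19 markers of intestinal epithelium was 324 to 875 CPM in the exercise libraries and 3280 to 22100 CPM in the sedentary libraries, with both highest values in sedentary 1 and 2. All 19 intestinal markers and 2 of 7 duct markers fell, and 16 of 36 acinar markers and 1 of 2 tested glial markers rose. Of the markers of beta cells (10 genes), alpha cells (7), delta and PP cells (5), endothelial cells (9), mesenchymal cells (13) and leukocytes (11), 0 passed in either direction, and no marker of any list was at 0 in all libraries. The most abundant marker of acinar cells, the amylase gene Amy2a5, had 61900 ± 32900 CPM in exercise and 20700 ± 6730 CPM in sedentary islets, and that of intestinal epithelium, the apolipoprotein gene Apoa4, had 119 ± 98.3 CPM in exercise and 2080 ± 1500 CPM in sedentary islets (SD, n = 5 each). The main results below are given also for the 8 libraries without sedentary 1 and 2, a set chosen after seeing the data. The part of cell composition in the results was not tested, and in bulk RNA fewer cells of a type and less RNA per cell cannot be told apart.

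Of the 10 genes, 1 rose in exercise islets, 0 fell and 9 did not pass (edgeR, adjusted p under 0.05 over all 15298 genes). The gene that rose was Irs2. Over all genes tested 2.44% rose and 11.4% fell. At an unadjusted p under 0.05, 3 genes were higher, Irs2, Insr and Igf2, and 0 were lower. Such p-values were common over all genes tested. The pathway gene Tsc2, at an unadjusted p of 0.0473 (edgeR), ranked 4958 of 15298 by p, both directions together. The same background applies to the unadjusted counts of the lists below. DESeq2 called 3 of the 10 higher and 0 lower, beside 7.17% and 17.3% of all genes, and limma-voom 1 higher and 0 lower, beside 1.16% and 2.22%. The log2 fold change was positive for 8 of the 10 genes, with a median of 0.35, beside 50.0% positive and a median of 0.00 over all genes tested.

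Irs2 (ENSMUSG00000038894) encodes the insulin receptor substrate named above. It had 67.4, 58.7, 58.2, 81.5 and 41.0 CPM in exercise 6 to 10, against 22.3, 34.5, 35.2, 41.6 and 27.3 CPM in sedentary 1 to 5. The groups met at their edges, since exercise 10 lay just under sedentary 4, and the other 4 exercise libraries lay above every sedentary library. The sum of 36 acinar markers was 462000, 359000, 342000, 809000 and 293000 CPM in exercise 6 to 10, against 278000, 129000, 190000, 203000 and 133000 CPM in sedentary 1 to 5. Its groups did not overlap, and the exercise libraries stood in the same order by this sum as by Irs2, from exercise 9 down to exercise 10. The sedentary libraries did not, since sedentary 1 had the highest sum among them and the lowest Irs2. For exercise 9, 6, 7, 8 and 10, in that order, the composition factors on library size were 0.669, 0.845, 0.934, 0.967 and 1.06. They rose as this sum fell, and a smaller factor raises every CPM of its library. The part of these factors in the shared order was not tested. The part of acinar RNA in the Irs2 difference was not tested. The means were 61.4 ± 14.8 CPM in exercise and 32.2 ± 7.49 CPM in sedentary islets (SD, n = 5 each), a ratio of 1.91, and the log2 fold change, 0.93 ± 0.21 SE, passed (edgeR adjusted p = 0.0194). It was 0.85 ± 0.21 SE without sedentary 1 and 2 (edgeR adjusted p = 0.0282). Irs2 passed with each of the 10 libraries left out in turn (log2 fold change 0.82 to 1.09, highest edgeR adjusted p = 0.0496). With scaling to library totals alone, which moved the median of all genes by -0.34, its log2 fold change was 0.54 and did not pass (edgeR adjusted p = 0.0529).

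Irs1 encodes the related substrate that is prominent in muscle and fat. Its values were 10.9, 15.3, 13.5, 9.53 and 10.2 CPM in exercise 6 to 10 and 1.02, 3.71, 8.60, 10.5 and 5.53 CPM in sedentary 1 to 5. Its lowest 2 levels stood in sedentary 1 and 2, the libraries lowest in beta cell markers, and sedentary 4 lay within the exercise range. The means of 11.9 ± 2.43 CPM in exercise and 5.86 ± 3.77 CPM in sedentary islets (SD, n = 5 each) gave a ratio of 2.02, close to that of Irs2, but the sedentary spread was wide and Irs1 did not pass (log2 fold change 1.01, 95% interval -0.04 to 2.07, edgeR adjusted p = 0.161). Without sedentary 1 and 2 the log2 fold change was 0.56 (95% interval 0.05 to 1.07, edgeR adjusted p = 0.145).

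The 250 bases before the transcription start of both substrate genes are shown because they hold the same pair of short motifs, and because Irs2 is the gene that rose. They come from RefSeq on GRCm38.p6, both on the minus strand, at chr8:11008930-11009179 for Irs2 and chr1:82291440-82291689 for Irs1, and read 5′ to 3′ with the motifs in capitals.
Irs2: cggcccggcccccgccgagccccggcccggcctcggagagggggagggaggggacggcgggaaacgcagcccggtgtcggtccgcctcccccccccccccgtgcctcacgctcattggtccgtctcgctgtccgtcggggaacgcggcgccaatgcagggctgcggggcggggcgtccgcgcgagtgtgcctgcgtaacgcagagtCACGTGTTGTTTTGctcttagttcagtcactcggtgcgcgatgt
Irs1: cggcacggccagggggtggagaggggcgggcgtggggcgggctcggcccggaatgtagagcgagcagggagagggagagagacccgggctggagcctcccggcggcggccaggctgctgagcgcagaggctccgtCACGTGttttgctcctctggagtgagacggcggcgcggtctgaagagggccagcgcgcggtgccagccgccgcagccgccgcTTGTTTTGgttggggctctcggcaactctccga
The capitals mark the E-box CACGTG, bound by helix-loop-helix leucine zipper factors, and TTGTTTTG, the core of the insulin response element that FoxO factors bind. Both strands were searched, and the motifs were picked after these sequences had been read. In Irs2 they stand next to each other without overlap, at bases -44 to -39 and -38 to -31 from the start. In Irs1 they stand apart, at bases -115 to -110 and -33 to -26. These positions are counted from the RefSeq starts. The GENCODE M21 annotation places the start of Irs2 at chr8:11008458, downstream of the RefSeq start. Of 32851 promoter windows of this length, 6.02% held CACGTG, 2.21% held TTGTTTTG and 33 windows, or 0.10%, held both. The FoxO site TGTTTAC, found in 3.17% of windows, and the cAMP response element TGACGTCA, found in 1.55%, were in neither. A promoter window was at hand for 9 of the 10 genes, and besides Irs1 and Irs2 only that of Igf2r held one of the 4 motifs, with CACGTG at bases -48 to -43 and -7 to -2. A match describes letters and is not a measured binding site.

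**Figure D1:**
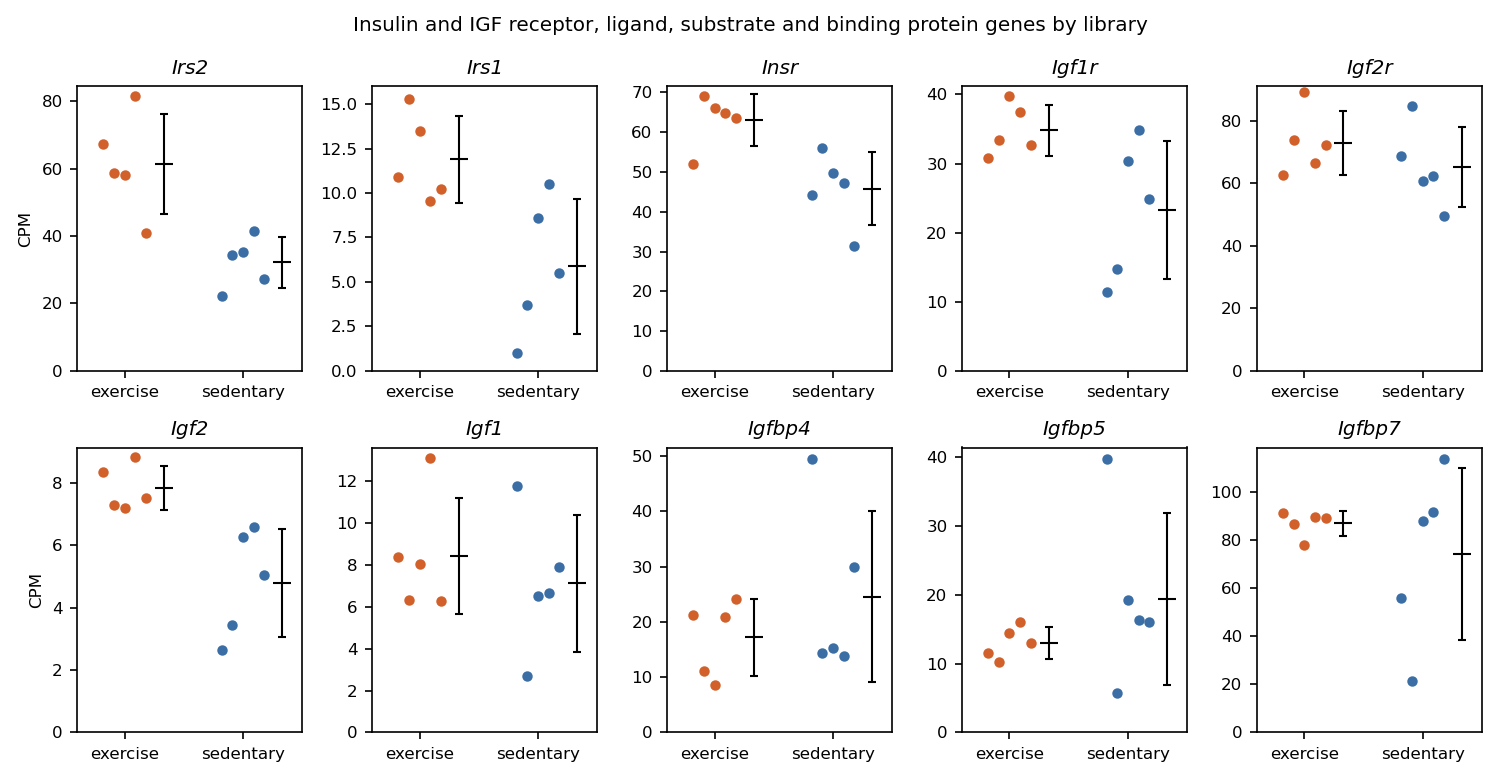
CPM of the 10 genes in each library (y axes start at 0), with exercise libraries in orange and sedentary libraries in blue; the bar beside each group is mean ± SD (n = 5). Irs2 was 41.0 to 81.5 CPM in exercise and 22.3 to 41.6 CPM in sedentary islets, and only Igf2 had groups that did not overlap.

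Among the receptors, none passed with all 10 libraries. Insr, the insulin receptor gene, had 52.0, 69.1, 66.1, 64.9 and 63.5 CPM in exercise 6 to 10, against 44.3, 56.0, 49.8, 47.3 and 31.3 CPM in sedentary 1 to 5. The groups overlapped through exercise 6 and sedentary 2 alone. Their means were 63.1 ± 6.54 CPM in exercise and 45.7 ± 9.12 CPM in sedentary islets (SD, n = 5 each), with a log2 fold change of 0.47 ± 0.16 (SE, 95% interval 0.11 to 0.82, edgeR adjusted p = 0.0744). Among sedentary libraries Insr was highest in sedentary 2, a library low in beta cell markers. Without sedentary 1 and 2 its groups no longer overlapped and it passed, at 0.59 ± 0.16 SE on the log2 scale (edgeR adjusted p = 0.0408). In these 8 libraries Irs2 and Insr were the 2 members that rose, beside 4.10% of all genes, and 0 fell (edgeR), beside 8.68%. Groups did not overlap in this set for Insr, Igf2 and Igf2r, all higher in exercise, beside 8.43% of all genes higher and 12.6% lower without overlap. Insr also passed with DESeq2 on all 10 libraries (adjusted p = 0.0271), but not with limma-voom (adjusted p = 0.0843). With scaling to library totals alone its log2 fold change was 0.13 (edgeR adjusted p = 0.677). Insr passed in 0 of the 10 fits with a single library left out (edgeR adjusted p = 0.0538 to 0.164), and in 5 of 21 other settings in all.

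Igf1r, the IGF1 receptor gene, had 30.8, 33.4, 39.8, 37.5 and 32.7 CPM in exercise 6 to 10, against 11.4, 14.7, 30.4, 34.8 and 24.9 CPM in sedentary 1 to 5. The low values were again those of sedentary 1 and 2, while sedentary 3 and 4 lay in or next to the exercise range. On the log2 scale the difference was 0.58 with a 95% interval of -0.04 to 1.21 (edgeR adjusted p = 0.171). Without sedentary 1 and 2 it was 0.24 with an interval of -0.05 to 0.53 (edgeR adjusted p = 0.258). Leaving out these libraries thus moved Igf1r and Irs1 toward 0 and Insr away from it.

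Igf2r encodes the receptor that takes up IGF2 for degradation and carries lysosomal enzymes tagged with mannose 6-phosphate. It had 72.8 ± 10.1 CPM in exercise and 65.2 ± 12.9 CPM in sedentary islets (SD, n = 5 each). Its ranges overlapped, at 62.5 to 89.1 CPM in exercise and 49.5 to 84.6 CPM in sedentary islets (log2 fold change 0.16, 95% interval -0.19 to 0.51, edgeR adjusted p = 0.471). The highest sedentary value was that of sedentary 2, and without sedentary 1 and 2 the ranges separated and the log2 fold change was 0.37 (95% interval 0.07 to 0.67, edgeR adjusted p = 0.108). With scaling to library totals alone it was -0.16. Its antisense partner Airn held 14 to 64.4 counts in a library, against 1011 to 1550 counts of Igf2r, and the sources used here do not say whether the counting used strand.

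**Figure D2:**
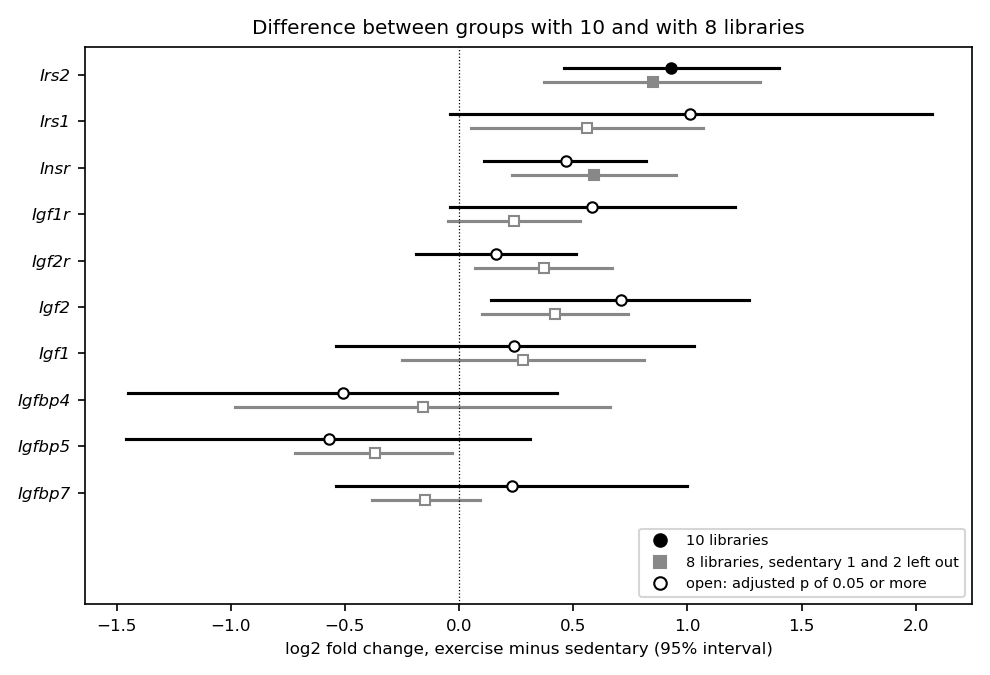
Log2 fold change, exercise minus sedentary, with its 95% interval from edgeR for each of the 10 genes, with all 10 libraries (black circles) and with 8 libraries (grey squares); open symbols did not pass. Irs2 passed in both sets (0.93 and 0.85), and Insr passed with 8 libraries (0.59).

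The receptors were also set against each other inside each library, where scaling has no effect. The ratio of Igf1r to Insr counts was 0.592, 0.484, 0.602, 0.579 and 0.516 in exercise 6 to 10, and 0.257, 0.264, 0.611, 0.737 and 0.794 in sedentary 1 to 5. Exercise libraries lay close together, and the sedentary libraries lay on both sides of them, with sedentary 1 and 2 below and sedentary 3, 4 and 5 above. The mean log2 ratio was -0.86 ± 0.14 in exercise and -1.07 ± 0.80 in sedentary islets, a difference of 0.22 that did not pass (SD, n = 5 each). A two-sided exact permutation test gave p = 0.540, also after adjustment over 2 ratios, where 0.00794 is the smallest p it can give. Without sedentary 1 and 2 the difference was -0.36, from means of -0.86 in exercise and -0.49 in sedentary islets (two-sided exact permutation p = 0.0179, the lowest that 56 divisions allow, adjusted p = 0.0357). The difference in this ratio thus has a different sign with and without these 2 libraries.

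The ratio of Irs2 to Irs1 counts was 6.18, 3.83, 4.31, 8.53 and 4.03 in exercise 6 to 10, against 21.3, 9.23, 4.08, 3.97 and 4.92 in sedentary 1 to 5. Irs2 counts exceeded Irs1 counts in all 10 libraries, and the ratio was highest in sedentary 1, where Irs1 had 17 counts. The mean log2 ratio was 2.36 ± 0.49 in exercise and 2.79 ± 1.03 in sedentary islets, a difference of -0.43 (SD, n = 5 each; two-sided exact permutation p = 0.460, adjusted p = 0.540). It was 0.25 without sedentary 1 and 2 (exact permutation test, adjusted p = 0.464).

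**Figure D3:**
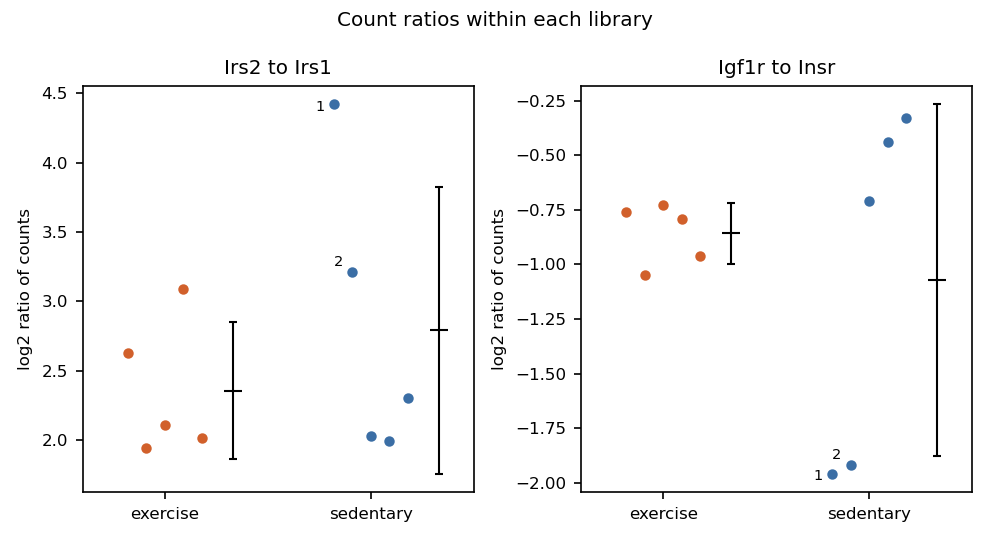
Log2 ratio of counts within each library for Irs2 to Irs1 (left) and Igf1r to Insr (right), with exercise libraries in orange, sedentary libraries in blue and mean ± SD beside each group (n = 5); the numbers 1 and 2 mark sedentary 1 and 2. In both panels these 2 libraries lie apart from the other sedentary libraries.

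Of the ligands, Igf2 was the only one of the 10 genes with groups that did not overlap. It encodes IGF2, a growth factor expressed mainly before birth in mouse and known in islets as a product of beta cells. It had 8.33, 7.29, 7.19, 8.82 and 7.52 CPM in exercise 6 to 10, against 2.63, 3.44, 6.27, 6.57 and 5.04 CPM in sedentary 1 to 5. Every exercise library lay above every sedentary library, as in 6.24% of all genes tested. The means were 7.83 ± 0.712 CPM in exercise and 4.79 ± 1.72 CPM in sedentary islets (SD, n = 5 each), a ratio of 1.64. On the log2 scale the difference of 0.71 ± 0.26 (SE, 95% interval 0.14 to 1.27) did not pass (edgeR adjusted p = 0.0872), and it was 0.42 without sedentary 1 and 2 (edgeR adjusted p = 0.0865). These levels rest on 112 to 154 counts per library in exercise and 44 to 152 in sedentary islets. The span of Igf2 overlaps, on the same strand, that of the protein-coding gene Gm49394, which held 0 to 11.55 counts in a library. Igf2 passed in 2 of 21 other settings, with DESeq2 (adjusted p = 0.0270) and without sedentary 4 (log2 fold change 0.85, edgeR adjusted p = 0.0436). With scaling to library totals alone its log2 fold change was 0.34 (edgeR adjusted p = 0.433).

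Igf1, whose product circulates mainly from liver and is also made locally by macrophages and stromal cells, had 8.42 ± 2.77 CPM in exercise and 7.13 ± 3.29 CPM in sedentary islets (SD, n = 5 each). The ranges were 6.30 to 13.1 CPM in exercise and 2.68 to 11.8 CPM in sedentary islets, and they overlapped. Its log2 fold change was 0.24 (95% interval -0.54 to 1.03, edgeR adjusted p = 0.628), and -0.15 with scaling to library totals alone. The highest sedentary value was that of sedentary 1 and the lowest that of sedentary 2, the libraries with the highest and the lowest sum of 11 leukocyte markers, at 2020 and 250 CPM. Most of the sum in sedentary 1 was Cd74, of antigen-presenting cells, at 1470 CPM, while the macrophage genes Adgre1 (2.15 CPM), C1qa (20.4 CPM) and Csf1r (16.5 CPM) were highest among sedentary libraries in sedentary 5, at 16.9, 78.5 and 38.6 CPM.

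The binding proteins hold IGFs in the fluid around cells and on extracellular matrix, and none of the 3 genes passed. Igfbp4 encodes a carrier that blocks IGF action until it is cut by a protease. It had 21.2, 11.1, 8.57, 20.9 and 24.2 CPM in exercise 6 to 10, against 49.5, 14.3, 15.2, 13.8 and 29.9 CPM in sedentary 1 to 5. Sedentary 1 and 5 were the highest, and these were also highest in leukocyte markers, at 2020 and 1820 CPM, against 439 to 893 CPM in the exercise libraries. The same libraries were also highest in the sum of 13 mesenchymal markers, there with sedentary 5 above sedentary 1. The part of leukocytes or of mesenchymal cells in the Igfbp4 levels was not tested. The log2 fold change of Igfbp4 was -0.51 with a 95% interval of -1.45 to 0.43 (edgeR adjusted p = 0.391). It was -0.16 without sedentary 1 and 2 (edgeR adjusted p = 0.806).

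Igfbp5, encoding a carrier that binds matrix, had 13.0 ± 2.32 CPM in exercise and 19.4 ± 12.5 CPM in sedentary islets (SD, n = 5 each). The sedentary group held both the highest level, 39.7 CPM in sedentary 1, and the lowest, 5.68 CPM in sedentary 2, and the exercise libraries lay between at 10.2 to 16.0 CPM. The log2 fold change was -0.57 (95% interval -1.46 to 0.31, edgeR adjusted p = 0.318), and -0.37 without sedentary 1 and 2 (95% interval -0.72 to -0.03, edgeR adjusted p = 0.146).

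Igfbp7 encodes a low-affinity binding protein that is plentiful in vessel walls. It had 91.3, 86.8, 78.0, 89.6 and 89.2 CPM in exercise 6 to 10, against 56.1, 21.6, 87.9, 91.9 and 114 CPM in sedentary 1 to 5. Exercise libraries were tightly grouped, while sedentary libraries reached both below and above them. A log2 fold change of 0.23 did not pass (95% interval -0.54 to 1.00, edgeR adjusted p = 0.644), and its sign turned without sedentary 1 and 2, to -0.15 (95% interval -0.38 to 0.09, edgeR adjusted p = 0.392). The sum of 9 endothelial markers ran 293 to 370 CPM in exercise and 86.2 to 341 CPM in sedentary islets, with its lowest values also in sedentary 2 and sedentary 1, at 86.2 and 153 CPM. The span of the gene overlaps that of Polr2b on the opposite strand. Whether their exons overlap was not examined, so whether reads could mix without strand in the counting is not known.

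**Figure D4:**
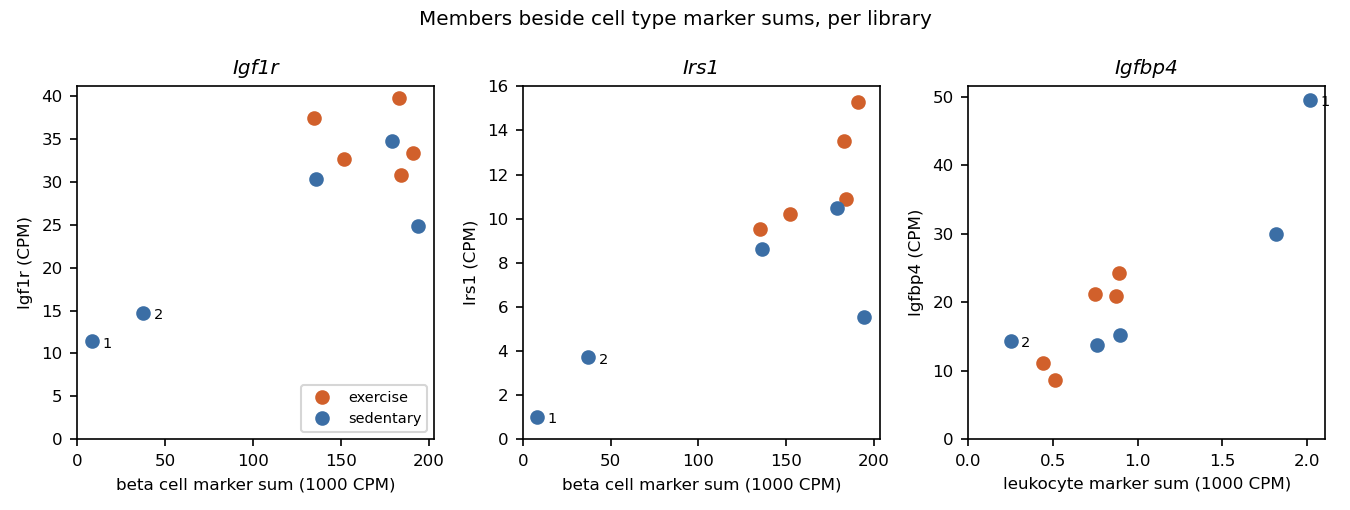
Igf1r and Irs1 (CPM) against the summed beta cell markers, and Igfbp4 (CPM) against the summed leukocyte markers (x axes in CPM, scaled as marked), with exercise libraries in orange and sedentary libraries in blue; numbers 1 and 2 mark sedentary 1 and 2. Sedentary 1 and 2 are lowest in beta cell markers, Igf1r and Irs1, and sedentary 1 is highest in leukocyte markers and Igfbp4.

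The spread among libraries was itself unequal. The coefficient of variation was larger in the sedentary than in the exercise group for 9 of the 10 genes, as for 89.2% of all genes tested, and Irs2 was the exception at 24.1% in exercise and 23.3% in sedentary islets. Igfbp7 varied by 6.05% in exercise and 48.5% in sedentary islets, and Irs1 by 20.5% in exercise and 64.3% in sedentary islets. Without sedentary 1 and 2 the sedentary value was the larger for 6 of the 10 genes, beside 53.6% of all genes.

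Levels of different genes were compared per length, as CPM per kb of the union of exons in GENCODE M21, an annotation that may differ from the one behind the counts. In exercise islets Igfbp7 stood first, at 71.9 ± 4.36 CPM per kb, clear of all the others. Irs2 followed at 9.70 ± 2.34, Igf2r at 8.20 ± 1.14, Insr at 6.75 ± 0.70 and Igfbp4 at 4.38 ± 1.76 CPM per kb, and from Irs2 down each of these overlapped the next. Igf1r had 3.05 ± 0.324, Igfbp5 2.17 ± 0.382, Igf2 1.49 ± 0.136, Irs1 1.30 ± 0.266 and Igf1 0.851 ± 0.281 CPM per kb (SD, n = 5). The ranges of Igf1r and Igfbp5 did not overlap, nor did those of Igfbp5 and Igf2, while Igf2 and Irs1, and Irs1 and Igf1, did overlap. In sedentary islets Igfbp7 was again first, at 61.5 ± 29.8, followed by Igf2r at 7.33 ± 1.45, Igfbp4 at 6.25 ± 3.95 and Irs2 at 5.09 ± 1.19 CPM per kb. Irs1, at 0.642 ± 0.414 CPM per kb, was the lowest there, next to Igf1 at 0.719 ± 0.33, from which its spread did not separate it.

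The genes whose level ran most like each of the 10 were found by the root mean square distance of centred log2 CPM over the 10 libraries, among 13421 others with at least 1 CPM on average. Irs2 was closest to Crebrf (distance 0.187) and Zswim4 (0.189), against its own spread of 0.563. Igf1r was closest to Cd164 (0.0897) and Zfp275 (0.0980), Insr to Plxna2 (0.0827) and Otud3 (0.0871), and Igf2r to Abhd2 (0.0800) and Slk (0.0852). Irs1 was closest to Hist1h1e (0.129) and Casc4 (0.141). Igf2 was closest to Calcoco1 (0.0981) and Slc35b4 (0.107), and Igf1 to Rbms1 (0.201) and Pik3ip1 (0.204), the last a gene of the inhibitor list below. Igfbp7 was closest to Sparc (0.122) and Fgd2 (0.129), Igfbp4 to Sh3bgrl3 (0.276) and Gypc (0.281), and Igfbp5 to Fyn (0.241) and Slc44a2 (0.248). The binding proteins Igfbp4 and Igfbp5 had the most distant nearest genes of the 10. All distances take in sedentary 1 and 2, the libraries that stood apart.

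Other genes of the pathway were read from 6 lists of 68 genes, of which 60 could be tested. Of these, 2 rose, 1 fell and 57 did not pass, with a median log2 fold change of 0.16, beside 2.44% higher and 11.4% lower over all genes tested. With all 10 libraries the 2 that rose were Grb10 and Foxo3, and the 1 that fell was Igf2bp2. In the 8 libraries without sedentary 1 and 2, 7 rose and 1 fell, beside 4.10% higher and 8.68% lower over all genes. The 7 were Igfbp3, Stc2, Grb10, Inppl1, Socs3, Foxo1 and Foxo3, and the 1 was again Igf2bp2.

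Among 19 inhibitors of receptor signalling 1 rose and 0 fell (edgeR; unadjusted p under 0.05 in 5 higher and 1 lower; 5 and 0 by DESeq2, 1 and 0 by limma-voom), with a median of 0.15. Grb10, an adaptor that binds the activated insulin and IGF1 receptors and restrains them, was the gene that rose. It had 39.6, 44.8, 40.9, 62.8 and 41.4 CPM in exercise 6 to 10, against 9.50, 9.23, 23.0, 24.9 and 21.9 CPM in sedentary 1 to 5. The groups did not overlap, and the log2 fold change was 1.37 ± 0.31 (SE, edgeR adjusted p = 0.0181), and 1.00 without sedentary 1 and 2 (edgeR adjusted p = 0.00327). Exercise 9 was the highest library, as in acinar markers, and without it the call was just lost (log2 fold change 1.27, edgeR adjusted p = 0.0503). Exercise 9 also had the lowest composition factor on library size, 0.669, which raises every CPM of that library. Exercise 6, next highest in acinar markers at 462000 CPM, had the lowest Grb10 of the exercise libraries. The part of acinar RNA in the Grb10 difference was not tested. Socs3, which blocks cytokine and insulin receptors, had 24.1 ± 13.9 CPM in exercise and 8.53 ± 5.42 CPM in sedentary islets (SD, n = 5 each, edgeR adjusted p = 0.0655). It passed without sedentary 1 and 2 (log2 fold change 1.71, edgeR adjusted p = 0.0240). The phosphoinositide phosphatase gene Inpp5k, at 27.0 ± 1.82 CPM in exercise and 22.3 ± 1.19 CPM in sedentary islets, and the AKT-binding pseudokinase gene Trib3, at 7.65 ± 1.48 and 4.72 ± 1.53 CPM in the same order, did not overlap between groups and did not pass (edgeR adjusted p = 0.0920 and 0.0928).

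Of 10 AKT substrates 1 rose and 0 fell (edgeR; unadjusted p under 0.05 in 3 higher and 1 lower; 2 and 1 by DESeq2, 0 and 0 by limma-voom). Foxo3, a FoxO transcription factor gene, was the 1 that rose, at 87.3, 79.7, 72.3, 123 and 54.6 CPM in exercise 6 to 10, against 48.0, 53.8, 45.5, 49.5 and 39.9 CPM in sedentary 1 to 5. Exercise 9 was the highest and exercise 10 the lowest exercise library for Foxo3. All 5 stood in the order of Irs2 and of the acinar marker sum, the reverse of that of their composition factors. Among sedentary libraries the order differed, since sedentary 2 was the highest for Foxo3 and the lowest by that sum. The part of acinar RNA in the Foxo3 difference was not tested. The log2 fold change of Foxo3 was 0.81 ± 0.20 (SE, edgeR adjusted p = 0.0245). Its call was lost without exercise 6 or 7 (edgeR adjusted p = 0.0576 and 0.0564), and it held without sedentary 1 and 2 (0.91, edgeR adjusted p = 0.0258). Foxo1, its relative, had 57.7 ± 4.54 CPM in exercise and 43.2 ± 6.91 CPM in sedentary islets (SD, n = 5 each), with no overlap (log2 fold change 0.42, edgeR adjusted p = 0.0610), and passed without sedentary 1 and 2 (0.40, edgeR adjusted p = 0.0332). The death promoter gene Bad was at 8.96 ± 1.85 CPM in exercise and 17.3 ± 8.09 CPM in sedentary islets, with no overlap (log2 fold change -0.95, edgeR adjusted p = 0.0536), and passed in 5 of 21 other settings. Tsc2, of the complex that restrains mTORC1, was at 66.7 ± 4.10 and 54.5 ± 8.59 CPM in the same order (edgeR adjusted p = 0.146).

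Igf2bp2 encodes an RNA-binding protein named for its binding to Igf2 mRNA, and was the only 1 of 3 such genes that could be tested. It had 1.96, 1.24, 2.01, 1.22 and 1.86 CPM in exercise 6 to 10, against 17.6, 26.6, 5.16, 2.76 and 4.26 CPM in sedentary 1 to 5. The highest levels were those of sedentary 1 and 2, the libraries highest in intestinal markers. Sedentary 3, 4 and 5 also lay above every exercise library in that marker sum, at 4320, 3280 and 4300 CPM against 324 to 875 CPM. The set of 8 libraries therefore keeps a difference in intestinal markers. The part of intestinal RNA in the fall was not tested. The log2 fold change was -2.76 ± 0.62 (SE, edgeR adjusted p = 0.0185), and -1.26 without sedentary 1 and 2 (edgeR adjusted p = 0.0150). The call was lost without exercise 7 or 9 (edgeR adjusted p = 0.0550 and 0.0547) and with limma-voom (log2 fold change -2.16). It held with DESeq2, and in 18 of 21 other settings in all.

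**Figure D5:**
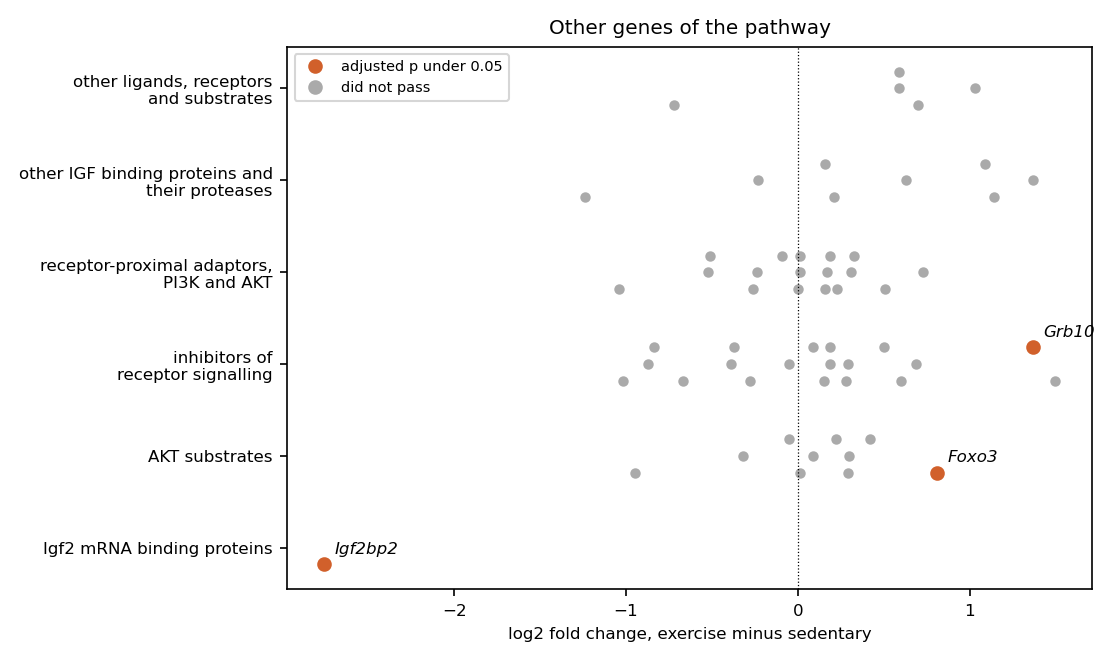
Log2 fold change, exercise minus sedentary, of the 60 tested genes of 6 pathway lists, 1 point per gene and 1 row per list, with genes that passed in orange; vertical offsets within a row only separate points. Grb10 (1.37) and Foxo3 (0.81) rose and Igf2bp2 (-2.76) fell.

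None of the 17 adaptor, PI3-kinase and AKT genes passed, 0 higher and 0 lower by edgeR, by DESeq2 and by limma-voom. Their median log2 fold change was 0.01 (edgeR). At an unadjusted p under 0.05, 0 were higher and 0 lower by edgeR, 3 and 1 by DESeq2, and 1 and 0 by limma-voom. Among those of smallest p were Gab1, a docking protein gene, at 7.78 ± 1.16 CPM in exercise and 11.2 ± 4.03 CPM in sedentary islets, Pdpk1, whose product phosphorylates AKT, at 80.3 ± 7.94 and 63.7 ± 13.8 CPM, and the PI3-kinase catalytic subunit gene Pik3cb at 8.58 ± 0.609 and 12.2 ± 4.74 CPM, each with exercise first (SD, n = 5 each, edgeR adjusted p = 0.155 to 0.182). With scaling to library totals alone 4 genes of this list fell, Gab1 and Pik3cb among them, where 28.8% of all genes fell.

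Of 8 other binding protein and protease genes tested, 0 passed (edgeR; unadjusted p under 0.05 in 1 higher and 1 lower; 1 and 1 by DESeq2, 0 and 0 by limma-voom). Igfbp3, the main IGF carrier of blood, had 108, 97.5, 81.6, 86.3 and 74.4 CPM in exercise 6 to 10, against 6.99, 14.0, 51.2, 69.2 and 62.2 CPM in sedentary 1 to 5. Its groups did not overlap, and it passed without sedentary 1 and 2 at a log2 fold change of 0.58 (edgeR adjusted p = 0.0246; 1.14 and adjusted p = 0.158 with all 10). Stc2, an inhibitor of the proteases that cut Igfbp4, was at 8.14 ± 5.37 CPM in exercise and 3.14 ± 2.11 CPM in sedentary islets (SD, n = 5 each, log2 fold change 1.37, edgeR adjusted p = 0.0894) and passed without sedentary 1 and 2 (1.74, edgeR adjusted p = 0.0380). The related Stc1 had 3.42 ± 2.19 CPM in exercise and 1.60 ± 1.20 CPM in sedentary islets (edgeR adjusted p = 0.235). Htra3, a serine protease gene, had 0.843 ± 0.389 CPM in exercise and 2.01 ± 1.05 CPM in sedentary islets (edgeR adjusted p = 0.0966).

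The 5 other ligand and receptor genes tested included insulin itself, and 0 passed by edgeR, by DESeq2 or by limma-voom. At an unadjusted p under 0.05, 0 were higher and 0 lower by edgeR and by DESeq2, and 1 and 0 by limma-voom. Ins1 had 44700 ± 7060 CPM in exercise and 29700 ± 22800 CPM in sedentary islets (SD, n = 5 each, log2 fold change 0.59, edgeR adjusted p = 0.553), and a log2 fold change of 0.00 without sedentary 1 and 2. Insrr, the insulin receptor-related receptor that senses alkaline pH, had 278 ± 15.3 CPM in exercise and 136 ± 96.2 CPM in sedentary islets with no overlap (log2 fold change 1.03, edgeR adjusted p = 0.204), and 0.50 without sedentary 1 and 2 (edgeR adjusted p = 0.0799). Igfals, of the circulating IGF complex, had 28.9 ± 5.26 CPM in exercise and 17.8 ± 12.3 CPM in sedentary islets (edgeR adjusted p = 0.365). Igflr1, a receptor of the IGF-like family, had 0.562 ± 0.434 and 0.923 ± 0.484 CPM in the same order (edgeR adjusted p = 0.424).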

How the data were processed

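Estimated counts for 10 single libraries, 1 row per Ensembl gene, were deposited by the authors. The submitters' processing notes name fastp and kallisto; their versions, the build, the annotation and the use of strand were not given in the sources used here. Per the labels' protocols, libraries were stranded mRNA. Values were rounded to whole numbers, which altered the 12.6% that were fractional (tolerance 1e-06). Symbols came from a table of gene names, and groups from the labels.

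Genes were tested in R 4.3.3 with edgeR 4.0.16 (default filter, minimum count 10 and total 15; TMM factors 0.669 to 1.20; quasi-likelihood; Benjamini-Hochberg, threshold 0.05). CPM were taken on TMM-scaled sizes, with a prior count of 2 on the log2 scale. Ratios used an offset of 0.5. Alternatives used DESeq2 1.42.0, limma 3.58.1, other scalings and filters, and each library left out. The fitting script was first tested on simulated data. No 2 libraries agreed within sampling noise (smallest chi-square per degree of freedom 9.59 over 45 pairs). Replicate numbers are not shared between groups.

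Members, lists and tests were chosen with earlier results of these data known. Named genes are all members, the 4 of smallest p of each pathway list (1 is not reported here) with any that passed, the 2 nearest genes of each member and the most abundant gene of a marker list. Airn, Polr2b, Gm49394, Adgre1, C1qa, Csf1r, Inppl1, Pappa, Pappa2, Igfbp2, Irs3 and Irs4 were named after their values were seen.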

Additional observations from a re-analysis of the deposited data

Results flagged for a closer look

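Of 66 groups of 5 libraries screened for a library far from the other 4, 3 were flagged, and chance flags about 1 in 20 such groups. Stc2 was at 17.4 CPM in exercise 9, where the other exercise libraries lay between 3.86 and 7.77 CPM. Stc2 was at 6.81 CPM in sedentary 1, against 1.53 to 2.76 CPM in the remaining sedentary libraries. Grb10 was at 62.8 CPM in exercise 9, where the other exercise libraries lay between 39.6 and 44.8 CPM. The screen used CPM scaled with the composition factors, and that of exercise 9 was the lowest, at 0.669. Before scaling, Grb10 had 975 of 23222704 counts in exercise 9 and 847 of 19352104 in exercise 10. Whether Grb10 would be flagged without the factors was not tested. None of the 10 receptor, ligand, substrate and binding protein genes was flagged by this screen.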

How the results depend on the processing

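For the 10 genes, 196 of 210 values under other settings kept direction and side of the threshold, 7 newly passed, 1 no longer passed and 6 changed sign. The count of members that rose, 1 as reported, was 0 with library totals (1 at an unadjusted p under 0.05), 2 with upper-quartile factors (median of all genes shifted by 0.11), 2 with acinar genes taken out before scaling, 3 with DESeq2, 2 with limma-voom quality weights, 2 with the 8 libraries and 1 to 2 with single libraries left out, the 2 without sedentary 4. Over all genes 1.04%, 3.26%, 3.01%, 7.17%, 5.67%, 4.10% and, without sedentary 4, 5.77% rose under these settings in turn. The 2 pathway genes that rose were 8 with DESeq2 (7.17% of all genes rose), 1 with limma-voom (1.16%), 8 with quality weights (5.67%) and 7 with the 8 libraries (4.10%). With single libraries left out they were 1 to 4, beside 0.847% to 5.77% of all genes. The 1 that fell became 11 with library totals (28.8% of all genes fell), 2 with upper-quartile factors (11.6%) and 3 with DESeq2 (17.3%). It became 0 with limma-voom (2.22% of all genes, and 3 pathway genes at an unadjusted p under 0.05). With single libraries left out 0 to 2 fell, beside 5.16% to 17.7% of all genes. With library totals the log2 fold changes of Igf1 (-0.15), Igf2r (-0.16), Igfbp7 (-0.14), Inpp5k (-0.06) and Tsc2 (-0.05) turned negative, as the median of all genes moved to -0.34. Igfbp7 was also -0.04 with quality weights, -0.15 with the 8 libraries and -0.01 (without sedentary 2) to 0.43 with single libraries left out. The Irs2 to Irs1 difference was -0.63 to -0.03 with single libraries left out and 0.25 with the 8 libraries, and that of Igf1r to Insr 0.00 (without sedentary 1, where it turned sign before rounding) to 0.40 and -0.36. The cause of these shifts was not tested. Igf1, Igf2 and Irs1 rest on the fewest counts of the 10 genes. No paired analysis was possible because the groups share no replicate number.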

Other observations

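Of the 68 pathway genes, 8 were too low to be tested. Igfbp2, a binding protein gene of liver and brain, was at 4.60 CPM in sedentary 1 and at most 0.218 CPM in each of the other 9 libraries. Pappa, encoding the protease that cuts Igfbp4, was at most 0.129 CPM in exercise and 0.478 CPM in sedentary libraries, while its relative Pappa2 had 206 ± 71.8 CPM in exercise and 178 ± 127 CPM in sedentary islets (SD, n = 5 each, edgeR adjusted p = 0.807). The substrate genes Irs3 and Irs4 were at most 0.342 and 0.146 CPM in any library.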
